A study of Mus musculus with 6 samples.

Results

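The leukocyte and matrix integrins described here are 10 genes chosen by name, Itgax, Itgam, Itgal, Itgb2, Itgav, Itgb1, Itgb3, Itgb5, Itga4 and Itga5. They were matched by gene symbol among the 56092 symbols of the count table, and all 10 passed the filter on low counts that left 13528 tested genes. The samples were RAW264.7 cells, a mouse macrophage line, selected as stable cell lines after transduction with a lentivirus. The lentivirus carried GFP and either a control construct (shNC) or an shRNA against Trem2 (shTrem2). The labels call shNC an empty vector control, while the study's methods give a control shRNA sequence for it. All 6 libraries, 3 per group, came from cells exposed for 24 hours to 20 ng/ml IL-4, then for 24 hours to debris of the mouse renal tubular cell line TCMK-1, so that no library lacked IL-4 or debris. The sources used here do not say which of the study's shRNAs the shTrem2 libraries carry or whether replicates were separate cultures, so the p-values measure the spread between these samples, which may be technical. With a stable line for each construct, an effect of the knockdown and a difference between the lines cannot be told apart. Positive changes mean higher values in shTrem2.

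Integrins are cell surface receptors made of an alpha and a beta subunit, and most subunits have more than one partner. The β2 subunit (Itgb2, CD18) is restricted to leukocytes and pairs with αL (Itgal, forming LFA-1), αM (Itgam, forming Mac-1 or complement receptor 3), αX (Itgax, CD11c) or αD (Itgad). These receptors bind ICAM proteins and complement fragments, and in macrophages they serve adhesion and phagocytosis. The αv subunit (Itgav) pairs with β3 or β5 to bind matrix proteins and the bridging protein MFG-E8, which links dying cells to phagocytes. The α4 and α5 subunits pair with β1 to bind fibronectin, and α4 also pairs with β7.

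The genes of αL, αM, αX and αD lie on the same strand of chromosome 7 in the build GRCm38 (GENCODE M21 annotation). Itgal (ENSMUSG00000030830) spans 127296260 to 127335138, Itgam (ENSMUSG00000030786) 128062640 to 128118491, Itgax (ENSMUSG00000030789) 128129547 to 128150657 and Itgad 128154376 to 128223816. Only 11055 bases separate Itgam from Itgax, and 3718 separate Itgax from Itgad. The authors' processing notes name GRCm39, so these positions are from another build than the authors' and serve to place the genes only. The other members lie on chromosomes 2 (Itga4 and Itgav), 8 (Itgb1), 10 (Itgb2), 11 (Itgb3), 15 (Itga5) and 16 (Itgb5).

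The promoters of Itgax and Itgam are printed because these neighbours moved in opposite directions between the groups. Each sequence is the 250 bases before the gene's start in RefSeq (GRCm38.p6), 5′ to 3′ on the plus strand. Capitals mark GAGGAA, the core of the purine-rich box bound by PU.1, and TGANTCA, the AP-1 site, searched on both strands.
Itgax, chr7:128129300-128129549: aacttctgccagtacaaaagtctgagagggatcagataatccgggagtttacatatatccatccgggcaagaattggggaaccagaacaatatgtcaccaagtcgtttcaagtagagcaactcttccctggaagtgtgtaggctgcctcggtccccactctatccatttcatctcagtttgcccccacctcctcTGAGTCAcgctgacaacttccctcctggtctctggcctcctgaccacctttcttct
Itgam, chr7:128062390-128062639: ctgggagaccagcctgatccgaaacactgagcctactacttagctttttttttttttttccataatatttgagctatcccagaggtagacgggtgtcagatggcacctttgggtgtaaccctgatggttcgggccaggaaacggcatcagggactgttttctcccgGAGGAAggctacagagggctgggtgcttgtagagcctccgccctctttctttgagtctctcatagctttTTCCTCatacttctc
GAGGAA occurred in Itgam, with its first base 84 and 15 bases before the start, and not in this Itgax window. TGANTCA occurred in Itgax, 56 bases before the start, and not in Itgam. Of 32851 promoters of this length, 23.3% held GAGGAA and 6.75% held TGANTCA. Promoters of 7 of the 10 members were matched, and GAGGAA also occurred in those of Itgav, Itgb1 and Itga5. Those of Itgal, Itgb2 and Itgb3 were not matched, and a relation between these motifs and the direction of change was not tested.

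Estimated counts per library totalled between 16054500 and 19835200, and no library pair within a group agreed within sampling noise. Trem2, against which the shRNA was directed, had 114, 122 and 144 CPM, a count scaled to its library's total, in shNC and 64.7, 63.2 and 80.2 CPM in shTrem2, a log2 fold change of -0.87 (standard error 0.094, adjusted p = 3.39e-06). With the authors' FPKM the Trem2 fall was larger, at -2.06 with limma on log2(FPKM + 1) and -2.08 on log2(FPKM + 0.1). An offset for effective length gave -2.06. The offset was derived from the same FPKM, so these values are not separate measurements. The transcripts behind the Trem2 values were not resolved. Adjusted p-values here are Benjamini-Hochberg values from the quasi-likelihood test of edgeR over all tested genes, unless another test is named. The macrophage markers Lyz2, Csf1r and Cd68 were abundant, and 8 of 10 listed macrophage markers had over 50 counts in every library. Arg1, the marker by which the study names its IL-4-treated macrophages, had between 1 and 3 counts in every library, so the libraries did not show the Arg1 transcript above the floor of 3 counts.

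A gene was called differentially expressed (DEG) at an FDR under 0.05 and a fold change over 1.5. Of the 10 integrins, 4 were DEGs, where 21.8% of all tested genes were. Itgax and Itgb3 were DEGs higher in shTrem2, as were 9.46% of tested genes. Itgam and Itgal were DEGs lower in shTrem2, as were 12.4% of tested genes. An FDR under 0.05 was reached by 8 members (3 higher, 5 lower), against 57.4% of all tested genes. The 3 values of each group did not overlap for 8 members, against 63.8% of all tested genes. The median log2 fold change of the 10 genes was -0.15, and that of all tested genes was -0.00003.

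**Figure D1:**
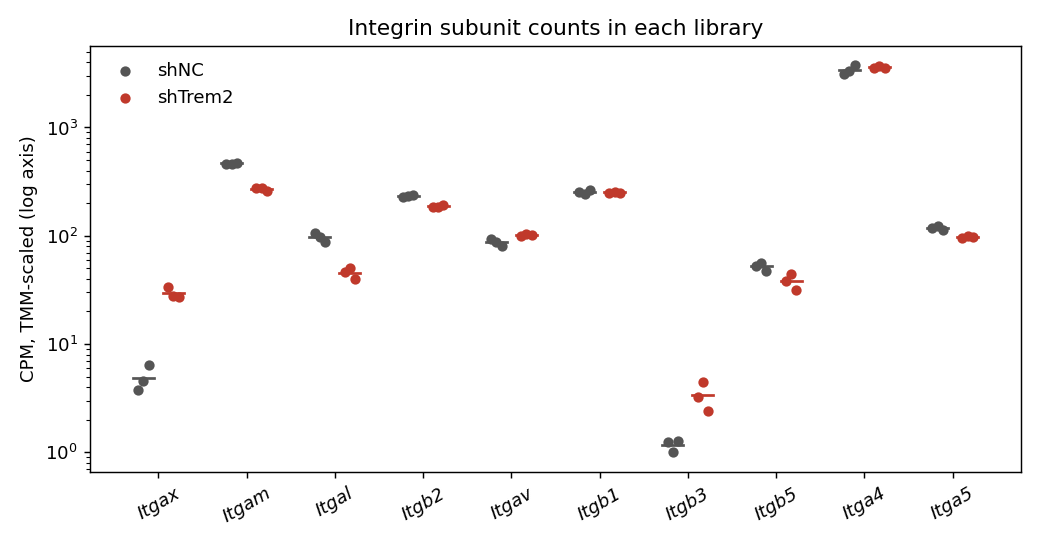
TMM-scaled CPM (log axis) of the 10 integrin genes in each library, with shNC libraries in grey and shTrem2 libraries in red, and a line at each group mean (n = 3). Itgax and Itgb3 lie higher in all 3 shTrem2 libraries, Itgam and Itgal lie lower, and the groups overlap for Itgb1 and Itga4.

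Among the β2 integrins, the alpha subunits moved in different directions. Itgax, the gene of CD11c, had 60, 82 and 117 counts in the shNC libraries and 645, 536 and 526 in shTrem2. The lowest shTrem2 library, with 526 counts, lay far above the highest shNC library, with 117. This corresponded to 4.90 CPM in shNC and 29.6 CPM in shTrem2, a log2 fold change of 2.58 (standard error 0.154, adjusted p = 1.37e-08). CPM compares a gene between libraries and not genes with each other.

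Itgam, the gene of CD11b, had 7457, 8343 and 8581 counts in shNC and 5270, 5325 and 5023 in shTrem2. The groups were separate, and Itgam fell by 0.78 on the log2 scale (standard error 0.045, adjusted p = 8.43e-09). Itgal, the gene of CD11a, had 1710, 1749 and 1580 counts in shNC and 890, 967 and 774 in shTrem2. It fell by 1.08 on the log2 scale (standard error 0.087, adjusted p = 2.13e-07), again without overlap. Itgb2, the shared beta subunit, had 3673, 4233 and 4315 counts in shNC and 3538, 3532 and 3699 in shTrem2. After scaling to depth the groups did not overlap, and Itgb2 fell by 0.32 (standard error 0.043, adjusted p = 2.23e-05), less than the fold threshold for a DEG. Itgad had at most 1 count in any library.

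The transcripts behind these sums were resolved by rebuilding each gene's FPKM (fragments scaled to depth and transcript length) from its rows and the annotated transcript lengths. The full-length transcript Itgax-201 (4046 nt) held between 95.4% and 100% of Itgax counts. The retained-intron transcript Itgax-202 (352 nt) held 0, 2 and 3 counts in shNC and 0, 4.36 and 1.11 in shTrem2. Its effective length, the annotated length less a correction for fragment size, was only between 44.1 and 51.9 nt, so that these few counts added up to 4.50 FPKM. The authors' FPKM for Itgax was 1.01, 3.63 and 5.12 in shNC and 9.23, 12.18 and 8.63 in shTrem2. Coding transcripts over 1000 nt alone gave 1.01, 1.28 and 1.68 FPKM in shNC and 9.00, 7.43 and 7.11 in shTrem2. The groups were separate on each scale. The log2 fold change was 1.504 with limma on the authors' log2(FPKM + 1) (adjusted p = 0.0155), where the added 1 was close to the lowest value. It was 1.79 with an offset for effective length (adjusted p = 0.0069). Both were smaller than the count-based 2.58, and both rest on the authors' FPKM, from which the offset was derived. The coding transcripts rose from a mean of 1.32 to 7.85 FPKM, beside 4.90 to 29.6 CPM, and were not tested.

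**Figure D2:**
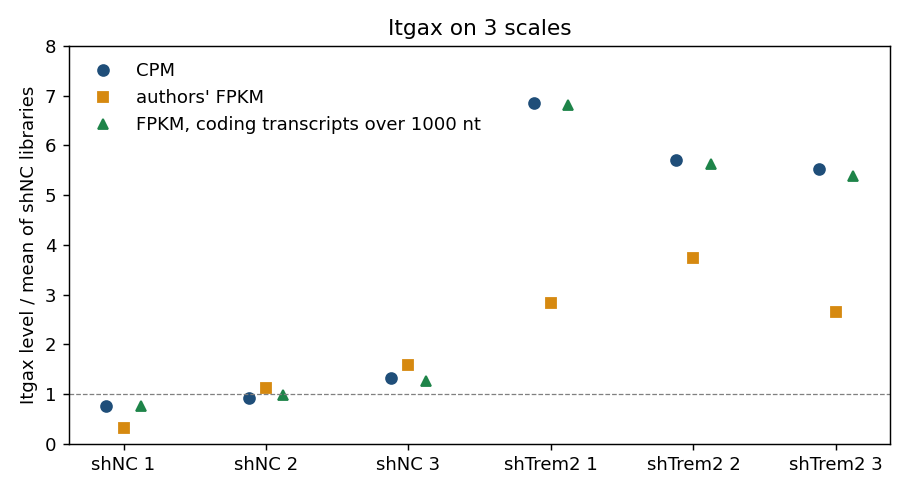
Itgax level in each library divided by the mean of the 3 shNC libraries, from CPM (circles), the authors' FPKM (squares) and the FPKM of coding transcripts over 1000 nt (triangles), with a dashed line at the shNC mean. The shTrem2 libraries are higher on all 3 scales, and the authors' FPKM gives the smallest distance.

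Both main Itgam transcripts were lower in shTrem2. Itgam-203 fell from a mean of 65.3 to 38.6 FPKM, and Itgam-201 had between 2950.93 and 3254.09 counts in shNC and between 1738.24 and 1976.12 in shTrem2. For Itgal, the count was spread over 4 coding transcripts. Itgal-202 had 677.43, 795.23 and 981.89 counts in shNC and 269.29, 176.81 and 221.59 in shTrem2, while Itgal-201, which is 27 nt shorter, had 688.35, 622.70 and 337.67 in shNC and 294.75, 497.83 and 356.41 in shTrem2. The groups were separate for Itgal-202 and overlapped for Itgal-201, and the division between such similar transcripts is an estimate. For Itgb2, the coding transcript Itgb2-201 held between 92.9% and 98.1% of counts. Its transcript Itgb2-204, annotated as a target of nonsense-mediated decay, had 0, 0 and 3.22 counts in shNC and 57.21, 57.18 and 181.13 in shTrem2.

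Because FPKM is per length, it also allows the subunits to be set beside each other. Itgax made up 0.768%, 2.75% and 3.88% of the summed FPKM of αL, αM, αX and αD in shNC and 11.1%, 14.2% and 11.2% in shTrem2. The means were 2.47% ± 1.58 (SD, n = 3) and 12.2% ± 1.73 (SD, n = 3), a difference of 9.69 percentage points (two-sided exact permutation p = 0.1, the smallest that 3 against 3 libraries allow). With coding transcripts over 1000 nt the difference was 8.93 points. Itgam stayed the most abundant of the 4 alpha genes in every library. On the same coding scale, the summed level of Itgal, Itgam and Itgax was 1.55, 1.496 and 1.47 times that of Itgb2 in shNC and 1.25, 1.24 and 1.13 times in shTrem2 (two-sided exact permutation p = 0.1). This ratio was chosen after the values were seen.

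**Figure D3:**
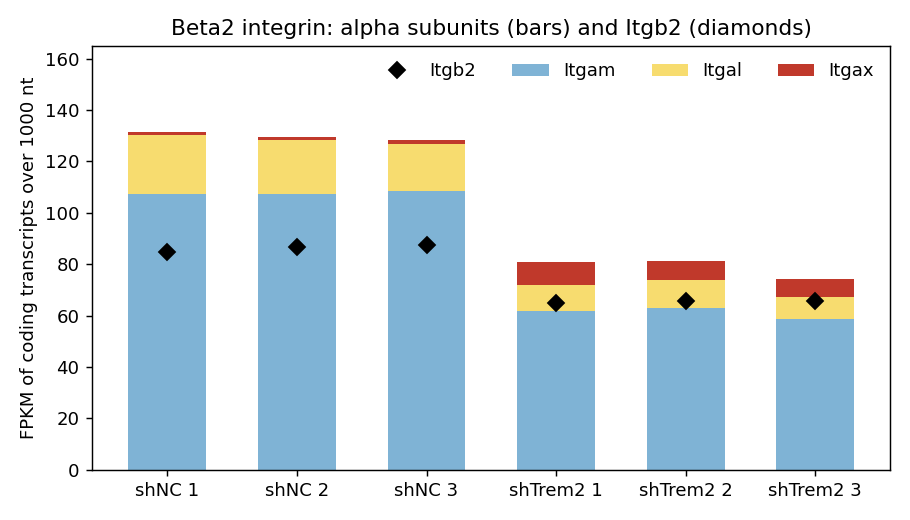
FPKM of coding transcripts over 1000 nt in each library, with Itgam, Itgal and Itgax stacked as bars and Itgb2 as diamonds. The bars are lower in the 3 shTrem2 libraries, where Itgax is a larger part of each, and Itgb2 falls from a mean of 86.3 to 65.3 FPKM.

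The αv group changed at its beta subunits. Itgb3, whose product forms the vitronectin receptor with αv and is prominent in osteoclasts, had 20, 18 and 23 counts in shNC and 62, 85 and 47 in shTrem2. The groups did not overlap, and Itgb3 rose by a log2 fold change of 1.52 (standard error 0.285, adjusted p = 4.35e-04). It was the least abundant member, with coding FPKM means of 0.202 and 0.603, and limma on log2(FPKM + 1), where the added 1 exceeds its level, gave 0.39 (adjusted p = 0.0185) and no DEG call. Itgb5 had 852, 1002 and 866 counts in shNC and 725, 852 and 614 in shTrem2, and fell by 0.45 (standard error 0.101, adjusted p = 0.00164) without reaching the fold threshold. Itgb3 made up 1.18% ± 0.259 (SD, n = 3) of the summed Itgb3 and Itgb5 FPKM in shNC and 4.23% ± 0.538 (SD, n = 3) in shTrem2, so Itgb5 remained the main one (difference 3.05 points, two-sided exact permutation p = 0.1).

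Itgav itself had 1499, 1591 and 1454 counts in shNC and 1889, 1994 and 1972 in shTrem2. It rose by 0.22 on the log2 scale (standard error 0.059, adjusted p = 0.00588). This call did not hold with the authors' FPKM, where limma on log2(FPKM + 1) gave 0.07 (adjusted p = 0.623). Limma on log2(FPKM + 0.1) had an adjusted p of 0.618. The effective-length offset, derived from the same FPKM, gave 0.10 (adjusted p = 0.412). Coding transcripts over 1000 nt gave 13.7, 12.9 and 11.6 FPKM in shNC and 14.1, 15.0 and 14.6 in shTrem2. On this scale the groups were separate, and the difference was not tested.

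Among the fibronectin receptors, Itga4 was the most abundant integrin transcript of these cells. It had 49975, 60483 and 68232 counts in shNC and 67770, 70775 and 69278 in shTrem2. Its share of all named counts lay between 0.315% and 0.377%, rank 14 among all symbols, and on the per-length FPKM scale it ranked 282. The groups overlapped, and the change of 0.08 on the log2 scale (standard error 0.062) had an adjusted p of 0.28. Without shNC replicate 3, its highest shNC library, it was 0.16 (adjusted p = 0.0227), and without shNC replicate 1, the lowest, it was 0.0095. Transcript Itga4-201 (9767 nt) held at least 99.5% of its counts.

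Itgb1, the shared partner, had 4086, 4394 and 4814 counts in shNC and 4779, 4875 and 4861 in shTrem2. No difference was detected, with a log2 fold change of -0.015 (standard error 0.045, adjusted p = 0.793) that became 0.016 without shNC replicate 3. Itga5, the classical fibronectin receptor subunit, had 1906, 2225 and 2066 counts in shNC and 1837, 1902 and 1909 in shTrem2. It fell by 0.28 (standard error 0.05, adjusted p = 3.10e-04), below the fold threshold, and the depth-scaled groups did not overlap. Itga4 made up 92.3% ± 0.896 (SD, n = 3) of the summed Itga4 and Itga5 FPKM in shNC and 93.7% ± 0.437 (SD, n = 3) in shTrem2 (two-sided exact permutation p = 0.2). With coding transcripts over 1000 nt the shares were 91.8%, 92.1% and 93.4% in shNC and 94.1%, 94.1% and 94.0% in shTrem2, and the groups were separate (difference 1.60 points, two-sided exact permutation p = 0.1).

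On the scale of coding FPKM, the order of the 10 genes in shNC was Itga4 (359), Itgam (108), Itgb2 (86.3), Itgb1 (72.8), Itga5 (29.1), Itgal (20.8), Itgb5 (18.2), Itgav (12.8), Itgax (1.32) and Itgb3 (0.202). In this order the libraries of Itgal and Itgb5 overlapped, and the other neighbours were separate. In shTrem2 the order was Itga4 (371), Itgb1 (70.2), Itgb2 (65.3), Itgam (61.1), Itga5 (23.5), Itgav (14.6), Itgb5 (13.4), Itgal (9.84), Itgax (7.85) and Itgb3 (0.603). Here Itgav overlapped with Itgb5, and Itgal with Itgax. Itgam thus moved from the second to the fourth place, and Itgax, far below Itgal in shNC, reached a level that overlapped with it.

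Some members share sequence with other genes. Of the 31-base words of Itgam-203, 75.0% also occur in Gm49368, an overlapping gene on the same strand that had between 143.14 and 286.21 counts per library. How the reads of this shared sequence were divided between both genes was not tested, so the Itgam counts are uncertain to that extent. For Itgax, 12.7% occur in Itgad. For Itgb5, 8.70% occur elsewhere, chiefly in Gm38317, which had under 1 count in every library, and for the other members the share was at most 2.45%.

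Of the 17 other integrin subunit genes, 6 passed the filter and the other 11 had at most 4 counts in any library. Among the 6, 5 were DEGs, and all 5 fell in shTrem2, where 21.8% of all tested genes were DEGs and 12.4% were DEGs that fell. The median over the 6 was -1.08 on the log2 scale. Itgb7, the other beta partner of α4, had 286, 363 and 433 counts in shNC and 71, 89 and 79 in shTrem2. Its log2 fold change of -2.31 (standard error 0.141, adjusted p = 1.62e-08) was the largest fall of the tested family, beside an Itga4 level that did not differ detectably. Itga6, a laminin receptor subunit, had 163, 224 and 182 counts in shNC and 59, 69 and 82 in shTrem2, a log2 fold change of -1.58 (adjusted p = 1.89e-06).

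Itga10, a collagen receptor subunit, had a log2 fold change of -0.85 (adjusted p = 0.0013). Itga7, another laminin receptor subunit, lay close to the fold threshold at -0.59 (adjusted p = 0.00186), and was no DEG without shNC replicate 3 (-0.51), shTrem2 replicate 1 (-0.56) or shTrem2 replicate 3 (-0.53). Itga2b, the platelet αIIb, had 39, 44 and 22 counts in shNC and 22, 18 and 7 in shTrem2. Its groups touched at 22 counts before depth scaling, and its log2 fold change of -1.30 (adjusted p = 0.0144) lost the call without shNC replicate 1 (adjusted p = 0.0567), shNC replicate 2 (adjusted p = 0.0654) or shTrem2 replicate 3 (adjusted p = 0.0512), and was -0.53 with the effective-length offset (adjusted p = 0.452). Without shTrem2 replicate 3, 3 of these subunits were DEGs. Itgb4, the partner of α6 in epithelia, had a log2 fold change of 0.45 (adjusted p = 0.135) and passed only without shNC replicate 3 (0.70, adjusted p = 0.0398).

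**Figure D4:**
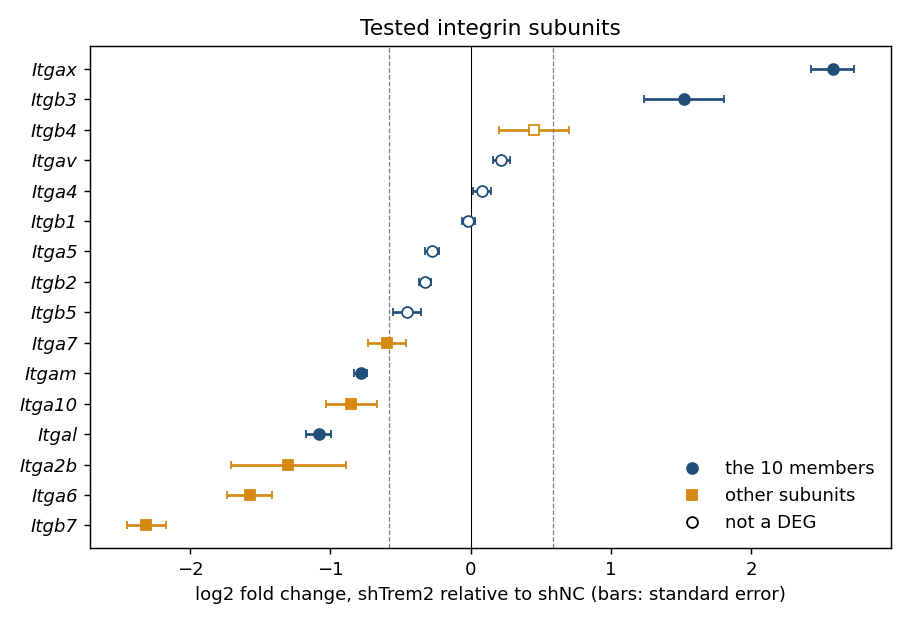
Log2 fold change of shTrem2 relative to shNC with its standard error for the 16 tested integrin subunit genes, with circles for the 10 members and squares for the other 6, filled where the gene was a DEG. Dashed lines mark a fold change of 1.5, and Itgax and Itgb3 are the DEGs on the right.

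Of 42 genes of integrin adaptors, kinases and regulators, 35 were tested. At an FDR under 0.05, 20 were higher and 8 lower, where 57.4% of all tested genes passed. DEGs numbered 7, of which 5 were higher, a share of 20.0% beside the 21.8% of all tested genes. The median log2 fold change was 0.19. Src, a kinase activated at adhesions, had 19, 25 and 29 counts in shNC and 71, 80 and 71 in shTrem2 (log2 fold change 1.46, adjusted p = 9.41e-05). Zyx, the gene of the focal adhesion protein zyxin, had 519, 573 and 546 counts in shNC and 1341, 1169 and 1294 in shTrem2 (1.07, adjusted p = 1.98e-08).

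Ilk, whose product binds beta subunit tails, rose by 0.94 (adjusted p = 2.58e-08), from between 42.1 and 45.4 FPKM to between 75.9 and 78.9 FPKM. Bcar1, the gene of the adaptor p130Cas, had 0.97 (adjusted p = 0.0182), which missed the threshold without shNC replicate 3 (adjusted p = 0.0676) or shTrem2 replicate 1 (0.62, adjusted p = 0.137). Lims2, a partner of ILK, fell by 1.82 (adjusted p = 1.86e-05), with 87, 99 and 77 counts in shNC and 21, 34 and 27 in shTrem2. Rasgrp2, an activator of the integrin-activating GTPase Rap1, had 10, 18 and 18 counts in shNC and 6, 5 and 9 in shTrem2 (-1.32, adjusted p = 0.0164), and lost its call without shNC replicate 2, shNC replicate 3, shTrem2 replicate 1 or shTrem2 replicate 2 (adjusted p between 0.0588 and 0.0676). DESeq2 gave it an adjusted p of 0.0871, and the effective-length offset -0.57 (adjusted p = 0.473). Rasgrp2 passed the filter on low counts only through its shNC libraries, so its call rests on that group.

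The 2 Rap1 genes had the highest FPKM among non-DEGs of the list when averaged over all 6 libraries. Rap1a had a log2 fold change of -0.19 (adjusted p = 0.00309) and Rap1b one of 0.14 (adjusted p = 0.0148). Dock1, Tln1 and Fermt3 are named after their values were seen. Dock1, an engulfment regulator downstream of αv integrins, was the remaining DEG (0.80, adjusted p = 8.90e-07). Tln1 and Fermt3, the genes of talin and kindlin-3, which bind beta subunit tails to activate integrins, had 0.37 (adjusted p = 5.99e-06) and 0.19 (adjusted p = 0.00403), below the fold threshold.

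Of 33 genes of integrin ligands, 15 were tested. DEGs numbered 11, of which 9 fell and 2 rose, where 21.8% of all tested genes were DEGs, 12.4% falling and 9.46% rising. The median of the 15 was -1.16 on the log2 scale. Among ligands of β2 integrins, F11r, the gene of JAM-A, had 63, 84 and 59 counts in shNC and 12, 24 and 29 in shTrem2 (-1.80, adjusted p = 1.47e-04). Icam5 had 112, 126 and 103 counts in shNC and 47, 39 and 35 in shTrem2 (-1.64, adjusted p = 7.50e-06). C3, whose cleavage product is bound by Mac-1 and by αXβ2, had 1808, 2268 and 2230 counts in shNC and 819, 891 and 822 in shTrem2 (-1.46, adjusted p = 6.51e-10). Icam1, the main ligand of LFA-1, is named after its values were seen, and fell by 0.70 (adjusted p = 5.90e-08).

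Jam3, a ligand of Mac-1, had 3, 0 and 0 counts in shNC and 12, 19 and 19 in shTrem2. It passed the filter on low counts only through its shTrem2 libraries, so its call rests on that group. Over the summed counts of 3 and 50 the ratio per named count was 14.8 (95% exact binomial interval 4.77 to 73.9, counting error only), and edgeR's adjusted p was 6.88e-04. Mfge8, the gene of the bridging ligand of αvβ3 and αvβ5, had 3198, 3887 and 3354 counts in shNC and 1360, 1589 and 1235 in shTrem2 (-1.46, adjusted p = 8.43e-09). Edil3, a related bridging ligand of the same receptors named after its values were seen, had the opposite direction (0.87, adjusted p = 2.78e-04).

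Lama4, a laminin chain, had 237, 292 and 256 counts in shNC and 108, 94 and 125 in shTrem2 (-1.40, adjusted p = 7.47e-07). Spp1, the gene of osteopontin, a ligand of αv and α4 integrins, was the most abundant of the list, with 4394.9, 4198.89 and 3834.07 FPKM in shNC and 3503.89, 2904.55 and 4726.73 in shTrem2. Its groups overlapped (log2 fold change -0.12, standard error 0.122, adjusted p = 0.406). Tgfb1, whose latent product binds αv integrins, had -0.09 (adjusted p = 0.159).

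**Figure D5:**
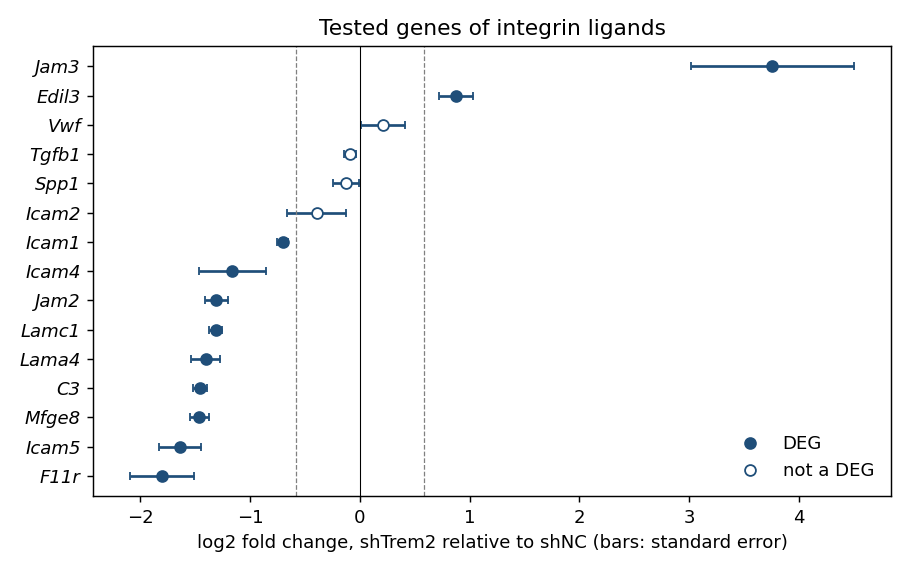
Log2 fold change of shTrem2 relative to shNC with its standard error for the 15 tested genes of integrin ligands, filled where the gene was a DEG, with dashed lines at a fold change of 1.5. Of the 11 DEGs, 9 lie on the left, and the fitted value of Jam3 depends on a group with 3, 0 and 0 counts.

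Of 9 tested macrophage markers, 8 were higher in shTrem2 at an FDR under 0.05 and 1, Adgre1, the gene of F4/80, was lower (-0.56, adjusted p = 3.54e-05), where 57.4% of all tested genes passed. DEGs numbered 4 of the 9, all higher, where 21.8% of all tested genes were DEGs and 9.46% were DEGs that rose. The groups overlapped for Cd68 (adjusted p = 0.0489) and Cd14. Among the 4 DEGs, Mrc1 had only 5, 14 and 6 counts in shNC. It passed the filter on low counts only through its shTrem2 libraries, so its call rests on that group. The summed level of the listed macrophage markers lay between 5114 and 6103 CPM in shNC and between 10401 and 11815 CPM in shTrem2, and Lyz2 was its largest part. Of 14 tubular epithelial markers, 8 had 0 counts in every library, and only Aqp1 passed the filter. Aqp1 had 12, 6 and 5 counts in shNC and 38, 50 and 39 in shTrem2, and likewise passed only through its shTrem2 libraries. No other epithelial marker exceeded 8 counts in any library. Of 10 dendritic and lymphoid markers, 3 had 0 counts throughout. Zbtb46, a transcription factor gene of classical dendritic cells, had 132, 149 and 140 counts in shNC and 64, 93 and 102 in shTrem2, the opposite direction to Itgax, and every other marker of that list had at most 7. The part of these markers in the integrin values was not tested. In bulk RNA, a change in the share of cells that express a gene and a change in its level per cell cannot be told apart.

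The 5 genes averaging 3 or more log2 CPM whose log2 CPM followed Itgax most closely over the 6 libraries were Atad1, Numa1, Tm4sf19, Iars2 and Trib1, with Pearson's r from 0.9994 to 0.9997. These values are a description, since the libraries fall into 2 groups and r exceeded 0.9 for 2808 of 13527 genes.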

How the data were processed

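Poly(A)-selected, stranded RNA-seq libraries of 3 shNC and 3 shTrem2 samples were grouped by the construct in their labels. Per the labels and methods, reads were processed with fastp, HISAT2 and StringTie, with GRCm39 as the build and versions not given in the sources used here. The authors deposited estimated counts for each transcript, unscaled and with a symbol as the only name, and FPKM values per gene. The authors' group means were not used.

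Transcript counts were added up by symbol and rounded. The share without a symbol, 0.908% to 1.12% per library, was left out. Genes were tested with edgeR 4.0.16 (TMM, filterByExpr, glmQLFit, glmQLFTest) in R 4.3.3 without covariates. Benjamini-Hochberg adjustment ran over 13528 genes, and DEGs had an FDR under 0.05 and a fold change over 1.5. The upper limit for a gene at 0 was 3 counts, or 0.153 to 0.189 CPM depending on the library, and covers counting error only. The fit was run on simulated data with known changes in a small set of well-expressed genes at a fixed dispersion. That setting covers neither genes with few counts nor as many changes as these data hold. Shares were compared with exact permutation tests. Count rows were matched to transcripts of GENCODE M21 (GRCm38), with the rebuilt FPKM within 0.44% of the authors' for 9 members and within 1.85% for Itgb3.

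The members, gene lists and naming rule were chosen with earlier results of these data known. The rule named the members, every other tested subunit, up to 6 DEGs with the largest changes and 2 abundant non-DEGs in the adaptor and ligand lists, Trem2, and the 5 genes most like Itgax. Alternatives were RLE, upper quartile and library-size scaling, other filters and thresholds, DESeq2 1.42.0, limma-voom and limma-trend on FPKM (limma 3.58.1), an effective-length offset, a replicate block and leaving out each library. Shares from coding transcripts over 1000 nt were added after seeing the data.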

Additional observations from a re-analysis of the deposited data

How the results depend on the processing

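Of the 4 members that were DEGs, Itgax, Itgam and Itgal kept the call and direction under every alternative scaling, filter, tool and left-out library that was run. Itgb3 kept it except with limma on log2(FPKM + 1), where it had 0.39. The log2 fold change of Itgax ranged from 1.504 to 2.83. Itgb1 ranged from -0.053 to 0.016 over the libraries left out. With a fold change over 2, Itgam was no longer a DEG, and DEGs numbered 3 among the other subunits, 4 among the adaptors and 1339 over all genes, where 36.6% of these were higher against 43.4% at the fold change of 1.5. With no fold threshold they numbered 8 members, 28 adaptors and 7763 of all genes, of which 50.2% were higher. With limma on log2(FPKM + 1), 4 adaptors were DEGs, and the number over all genes also fell, from 2951 to 2124 of 13528. Leaving out 1 library gave between 3 and 5 other subunits and between 2789 and 3105 DEGs over all genes. With at least 10 counts required in every library, DEGs numbered 10 ligands, 6 adaptors, 4 other subunits and 2488 of 12270 genes. Jam3, Rasgrp2 and Itga2b, each under 10 counts in some library of its lower group, were then not tested. As shares of counts, which are not per length, the differences were 7.68 points for Itgax and 5.80 for Itgb3. The replicate numbers did not pair the samples (correlation of deviations between -0.0044 and 0.0066), and with the replicate block 2911 genes were DEGs, 2871 of them shared with the fit without it, and Itgax had 2.58. Depth limits genes with under 100 counts in every library, among them Itgb3, Itga2b, Itgb4, Src, Lims2, Rasgrp2, Bcar1, F11r and Jam3.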
